A study of Sus scrofa with 4 samples.

Results

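The data concern 6 transcription factors of the lymphoid and myeloid lineages, GATA3, ETS1, ID2, ID3, SPI1 and XBP1, in the thymus of IL2RG knockout (KO) and wildtype (WT) pigs. The genes were chosen with earlier results of these data known. All probes whose RefSeq accession belongs to 1 of these 6 pig genes were then taken, whatever their values. This gave 17 of the 6686 probes and 6 of the 3020 genes that could be named on the array. GATA3 (NM_001044567) and ETS1 (NM_001162886) had 2 probes each, ID2 (NM_001037965) had 5, XBP1 (NM_001142836) had 6, and ID3 (NM_001243602) and SPI1 (NM_001001865) had 1 each. All 17 probes were well above background on all 4 arrays and none was saturated.

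Total RNA from whole thymus of Minnesota miniature swine was labelled with Cy3 and hybridised to 4 one-colour Agilent porcine arrays, 2 for the genotype labelled IL2RG+/- and 2 for the genotype labelled wildtype. The KO pigs carried the monoallelic IL2RG deletion mIL2RG+/Δ69-368, made with TALEN nucleases in cultured cells from which the animals were cloned by nuclear transfer. IL2RG encodes the common gamma chain, a receptor subunit for several interleukins that T cell and NK cell precursors need. Most KO pigs had no thymus and the KO RNA came from animals with a rudimentary one, so the KO arrays describe what tissue was left, and a lower signal in such bulk RNA cannot tell fewer cells of a type from less RNA per cell. The ages of the animals whose RNA was arrayed were not clear from the sources used here. Nothing in the labels says whether the WT samples came from separate animals, and the p-values measure the spread between these samples, which may be technical.

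Transcription factors of this kind set the fate of blood precursors in the thymus. GATA3 and ETS1 act in T cell commitment and in the expression of T cell receptor components. ID2 and ID3 lack a DNA binding domain and hold E proteins in inactive pairs, ID3 mainly downstream of T cell receptor signals and ID2 in innate lymphoid and NK cells. SPI1, also called PU.1, drives macrophage and other myeloid programmes and is switched off as thymocytes commit to the T lineage, and XBP1 drives the secretory programme of plasma cells and 1 branch of the unfolded protein response.

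The targeted gene went in the direction of the labels, with both IL2RG probes lower on both KO arrays (log2 fold changes -3.41 and -4.38). Thymocyte markers fell on the same arrays, and the part of lost cells in the fall of IL2RG was not tested. KO replicate 1 shared slide 1 with WT replicate 2, and KO replicate 2 shared slide 2 with WT replicate 1. Of all 31959 probes tested, 34.0% passed limma's Benjamini-Hochberg adjusted p under 0.05 with at least 2-fold (called probes), 21.0% of them higher in KO and 13.0% lower, both as shares of the probes tested. Against the marker lists of the thymus, all 13 measured thymocyte markers fell in KO, by a median of 2.60 on the log2 scale, and their summed signal, in multiples of the 75th percentile of the array, was 37.5 and 36.6 on the KO arrays against 229 and 310 on the WT arrays. All 10 measured macrophage markers were higher (median 2.29), with summed signals of 284 and 352 on the KO arrays against 71.7 and 55.7 on the WT arrays. WT replicate 1 stood apart in 4 neutrophil markers, whose summed signal was 101 there and between 1.81 and 7.43 on the other 3 arrays. Without it GATA3 (-3.95), ETS1 (-1.90), SPI1 (1.88) and XBP1 (1.63) kept their calls.

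Signals below are log2 values relative to the 75th percentile of the same array, in the order KO replicate 1, KO replicate 2, WT replicate 1 and WT replicate 2, and log2 fold changes are KO minus WT. Of the 17 probes, 7 (41.2%) were called higher in KO, against 21.0% of all tested probes, and 4 (23.5%) were called lower, against 13.0%. Probes of a gene are not independent, and 6 of the 7 higher ones were of XBP1. Counted by gene, 2 of the 6 were higher and 2 lower, beside 25.2% and 12.6% of all named genes tested. The genes were chosen with earlier results of these data known, so these shares do not measure an enrichment. GATA3 and ETS1 fell, SPI1 and XBP1 rose, and no probe of ID2 or ID3 passed both criteria. In each of the 17 probes the KO and WT arrays did not overlap, which held for 78.7% of all tested probes. The replicates of a genotype differed by at most 0.19 in KO and 0.63 in WT in these probes. Over all tested probes the median difference was 0.16 in KO and 0.30 in WT, and the 95th percentile was 0.70 in KO and 1.26 in WT.

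**Figure D1:**
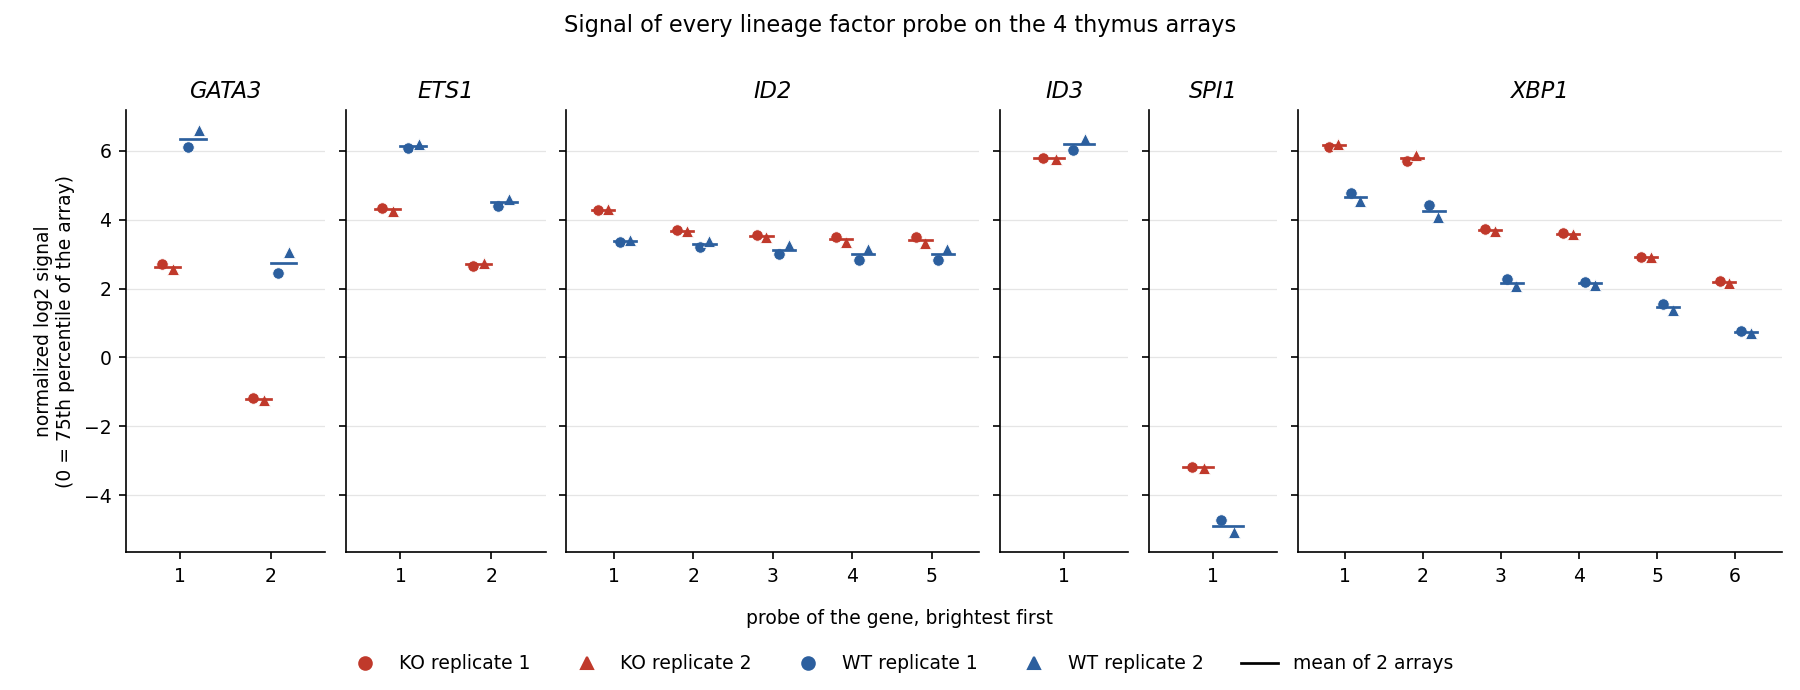
Normalized log2 signal (vertical axis, 0 is the 75th percentile of the array) of every probe of the 6 factors, with 1 point per array, KO in red and WT in blue, and a bar at the mean of 2 arrays. The 2 GATA3 probes and the 2 ETS1 probes lie lower in KO, the SPI1 probe and the 6 XBP1 probes lie higher, and the ID2 and ID3 points lie closer together.

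GATA3, the zinc finger factor that T cell precursors need for commitment and for the CD4 lineage, had the largest change of the 6. The processed signal of its brighter probe, on the linear scale before scaling, stood at 4975 and 4140 for the KO arrays against 43340 and 67040 for the WT arrays. On the log2 scale the same probe read 2.71, 2.57, 6.13 and 6.59. Both KO arrays were far below both WT arrays, and the WT arrays differed from each other more than the KO arrays did. The mean was 2.64 ± 0.09 in KO and 6.36 ± 0.33 in WT (SD, n = 2), a signal 13.2-fold lower in KO, or -3.72 as a log2 fold change (SE 0.22, 95% interval -4.31 to -3.13, limma adjusted p = 0.00208). The second GATA3 probe read -1.17, -1.23, 2.44 and 3.07, with the same order of arrays. Its log2 fold change was -3.96 (SE 0.26, limma adjusted p = 0.00214), so that the interval of each probe covered the value of the other. Within slide 1 the KO array was lower by 3.89 on the log2 scale at the brighter probe, and within slide 2 by 3.55.

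ETS1, the founding member of the ETS factors and active in T, B and NK cells, fell by less. Its brighter probe read 4.35, 4.26, 6.07 and 6.20. The replicates of each genotype lay close together and the genotypes were well apart. Its log2 fold change was -1.83 (SE 0.16, 95% interval -2.26 to -1.41, limma adjusted p = 0.00293), a 3.57-fold lower signal in KO. The second ETS1 probe read 2.66, 2.74, 4.39 and 4.62 and had a log2 fold change of -1.80 (SE 0.17, limma adjusted p = 0.00336), again lower in both KO arrays. Within slides 1 and 2 the change of the brighter probe was -1.85 and -1.82.

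ID2, the inhibitor of E proteins that innate lymphoid and NK cells need, was represented by 5 probes that were all somewhat higher in KO and were not called. The brightest read 4.28, 4.31, 3.35 and 3.40. The replicates of each genotype nearly coincided and the genotypes did not overlap. With a log2 fold change of 0.92 (SE 0.15, 95% interval 0.52 to 1.32) and a limma adjusted p of 0.0111 it passed on p but missed 2-fold, at 1.89-fold. The next ID2 probe in brightness read 3.69, 3.66, 3.21 and 3.39. The other 4 probes had log2 fold changes of 0.37 to 0.43 with limma adjusted p of 0.121 to 0.137, and each of their intervals included 0. The 5 probes thus gave unlike sizes for the same gene. The brightest exceeded the mean of the other 4 by 0.72 and 0.84 on the KO arrays against 0.38 and 0.16 on the WT arrays, a difference of 0.51 with a two-sided exact permutation p of 0.33, which is the smallest that 2 against 2 arrays can give.

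ID3, the inhibitor of E proteins that follows T cell receptor and pre-T cell receptor signals in thymocytes, was bright in both genotypes. Its only probe had processed signals of 42360 and 37720 for KO against 40610 and 57040 for WT. After scaling it read 5.80, 5.76, 6.03 and 6.36. The arrays did not overlap once scaled, but WT replicate 1 lay nearer to the KO arrays than to WT replicate 2. The log2 fold change was -0.42 (SE 0.19, 95% interval -0.91 to 0.08, limma adjusted p = 0.131), so a fall to just under a 2-fold difference and a rise of 0.08 were both inside the interval. Without WT replicate 1 it was -0.58 (limma adjusted p = 0.0405), still under 2-fold.

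SPI1, the ETS domain factor of macrophages and their precursors, had the dimmest of the probes. Its processed signals were 84.3 and 75.2 for KO against 23.6 and 20.7 for WT. The dimmest probes that still counted as well above background had signals of 9.27 to 11.8 on the 4 arrays. On the log2 scale it read -3.18, -3.21, -4.72 and -5.07. Both KO arrays were higher than both WT arrays and nearly equal to each other. The log2 fold change was 1.70 (SE 0.19, 95% interval 1.19 to 2.21, limma adjusted p = 0.00476), or 3.25-fold. With the normexp background correction, which adds an offset to every spot, the log2 fold change of this dim probe was 0.59 (limma adjusted p = 0.0210) and the call was lost.

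XBP1, a bZIP factor of plasma cells, of other secretory cells and of the endoplasmic reticulum stress response, rose in all 6 of its probes. The brightest had processed signals of 53250 and 51110 for KO against 17110 and 16130 for WT. On the log2 scale it read 6.13, 6.20, 4.78 and 4.54. Both KO arrays were alike and clearly above both WT arrays. Its log2 fold change was 1.50 (SE 0.17, 95% interval 1.04 to 1.96, limma adjusted p = 0.00494), or 2.83-fold higher in KO. The 6 probes lay close together, between 1.43 and 1.54 with a median of 1.49 and limma adjusted p of 0.00401 to 0.00655. Over them the brightest probe exceeded the mean of the other 5 by 2.50 and 2.56 on the KO arrays against 2.54 and 2.47 on the WT arrays, so the probes kept their spacing across arrays. Without KO replicate 2, the second brightest probe was no longer called (log2 fold change 1.45, limma adjusted p = 0.0540).

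**Figure D2:**
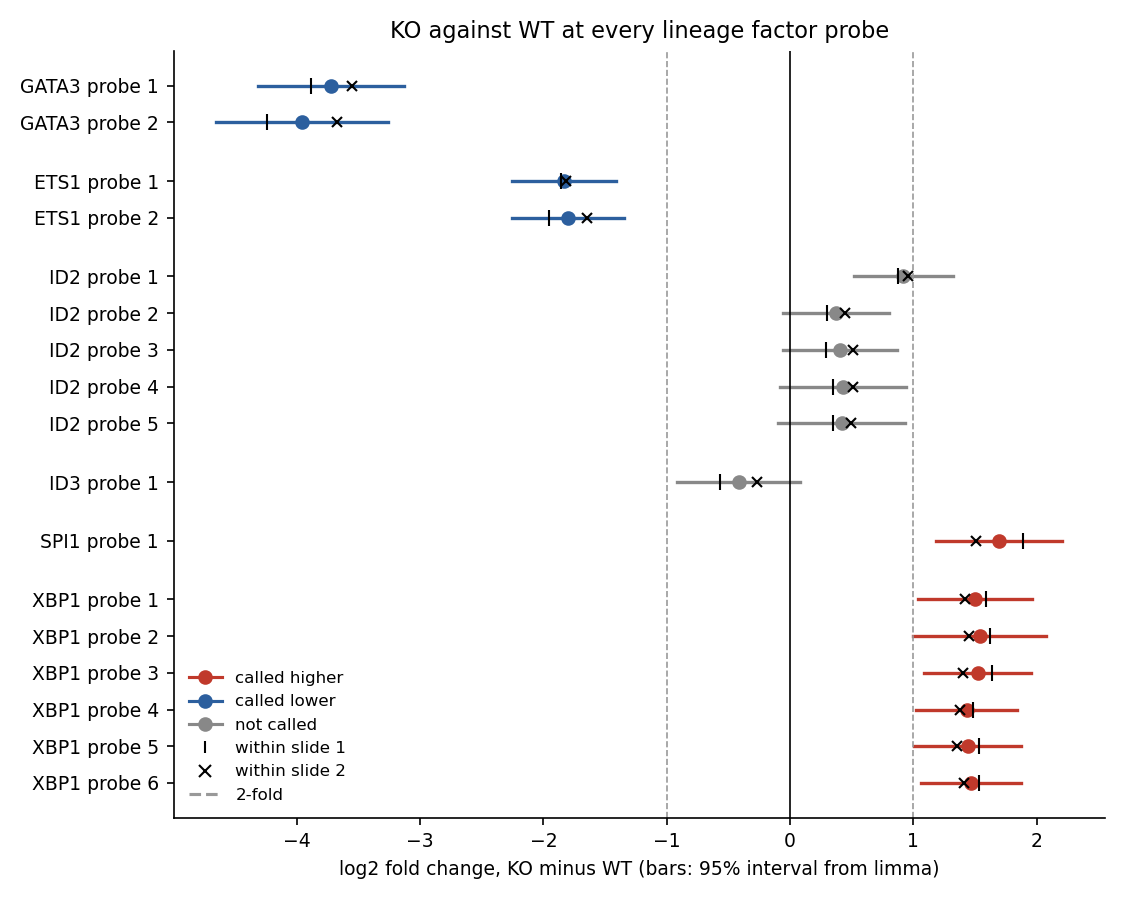
Log2 fold change of KO over WT (horizontal axis) for each of the 17 probes, with the 95% interval from limma as a bar, the within-slide values as black marks and 2-fold as dashed lines. The GATA3 probes lie at -3.72 and -3.96, the ETS1 probes at -1.83 and -1.80, the SPI1 probe at 1.70 and the XBP1 probes between 1.43 and 1.54, while 4 ID2 probes and the ID3 probe have intervals that include 0.

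The changes were also compared between factors within each array, where scaling cancels. A difference between 2 probes is not a ratio of transcripts, so only its shift between genotypes is read. The brightest GATA3 probe minus the brightest ETS1 probe read -1.64, -1.68, 0.05 and 0.39, a shift of -1.88. GATA3 was thus lower in KO beyond the fall of ETS1 on both KO arrays. The brightest ID2 probe minus the ID3 probe read -1.52, -1.46, -2.68 and -2.96, a shift of 1.33 toward ID2. The other 4 ID2 probes rose by 0.37 to 0.43, less than the 0.92 of the brightest, and would give a smaller shift. SPI1 minus XBP1 shifted by 0.20, but the sign of that shift was not stable. SPI1 rose by less than XBP1 with quantile normalization (1.40 against 1.72) and in the authors' log2 table (1.61 against 1.72). With the normexp correction the rises were 0.59 for SPI1 and 1.50 for XBP1. All 15 pairs of the 6 genes had arrays that did not overlap, and each had a two-sided exact permutation p of 0.33 (0.33 after Benjamini-Hochberg adjustment over the 15 pairs), the smallest that 4 arrays allow. The 15 pairs share 6 probes, each of which alone separated the genotypes, as 78.7% of all tested probes did. The share for pairs of other genes was not computed, so the count is not a separate result.

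Since the thymocyte and macrophage markers moved in opposite directions, each factor was set against the mean log2 signal of a marker list on the same array. GATA3 minus the 13 thymocyte markers read 2.79, 3.08, 2.71 and 2.69, a shift of 0.24, against the fall of 3.72 in GATA3 itself. The sign of that small shift reversed with the normexp correction (-0.35), in the authors' log2 table (-0.0168) and with probes well above background on all 4 arrays (-0.0766). ETS1 minus the same markers read 4.43, 4.77, 2.65 and 2.30, a shift of 2.12, so ETS1 fell by less than the mean of the thymocyte markers. ID3 shifted by 3.54 and XBP1 by 5.46 against these markers. The mean change of the markers was pulled down by RAG2 (-7.76), PTCRA (-7.74) and RAG1 (-7.68). GATA3 fell by more than the markers' median of -2.6, and ETS1 by less. SPI1 minus the 10 macrophage markers read -6.25, -6.62, -5.87 and -5.74, a shift of -0.63, since SPI1 rose by less than the mean of those markers, and that shift was -0.99 with quantile normalization and -1.47 with the normexp correction. By their brightest probes ID2 shifted by -1.41 and XBP1 by -0.82 against the macrophage markers. The other 4 ID2 probes rose by less than the brightest. Each of these 7 shifts had a two-sided exact permutation p of 0.33, and the part of cell composition in the factors' changes was not tested.

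**Figure D3:**
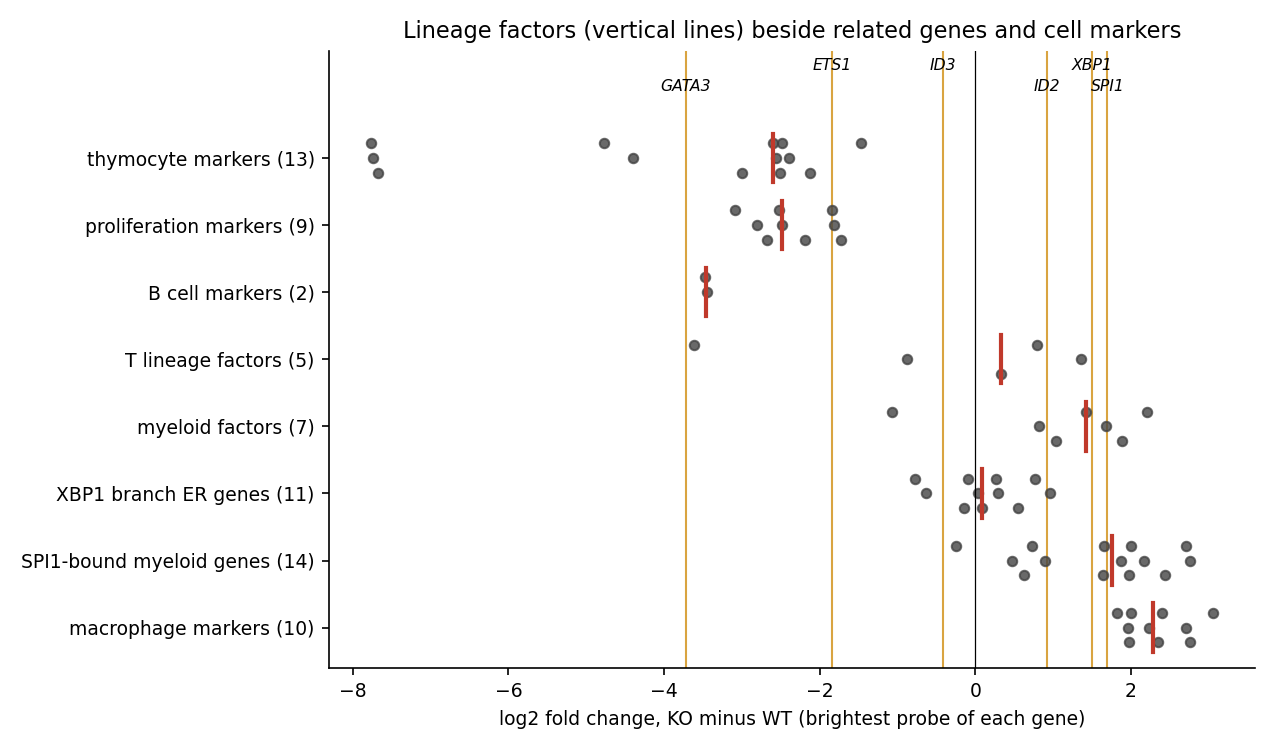
Log2 fold change of KO over WT (horizontal axis) for the brightest probe of each measured gene in 8 lists, 1 grey point per gene with the median in red and the number of genes in brackets, and the 6 factors as vertical lines. GATA3 at -3.72 and ETS1 at -1.83 lie within the range of the 13 thymocyte markers (-7.76 to -1.47), while SPI1 at 1.70 and XBP1 at 1.50 lie just under that of the 10 macrophage markers (1.82 to 3.05).

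Relatives of the 6 factors were measured in part, each by its brightest probe. Over the 2702 named genes tested, 25.2% were called higher in KO and 12.6% lower, and the median change was -0.0015 on the log2 scale. Of 5 other ID and E proteins, ID1 and ID4 could be named. ID1, an E protein inhibitor that is prominent in stromal and endothelial cells, read 5.22, 5.11, 2.15 and 1.50 and rose in KO by 3.34 on the log2 scale (SE 0.27, limma adjusted p = 0.00261). The KO arrays lay far above both WT arrays. ID4 was not called, at 0.56 (limma adjusted p = 0.160). With ID2 and ID3, the 4 measured ID genes therefore spanned -0.42 to 3.34, with ID1 the only one called.

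Of 6 other GATA factors 3 had a named probe and 2 were tested. GATA6, which acts in mesenchymal, vascular and resident macrophage cells, rose by 3.06 (limma adjusted p = 0.00696), opposite to GATA3, and by 1.52 with the normexp correction. GATA2, a factor of blood progenitors and mast cells, was not called at 0.63, and GATA4 was not well above background in either genotype. None of the 16 other ETS factors on the list had a named probe.

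Of 28 further factors of the T lineage, 5 were tested. LEF1, a partner of beta-catenin in thymocytes, read 1.37, 1.11, 4.73 and 4.98, much like GATA3. It fell by 3.62 (limma adjusted p = 0.00205) and all 3 of its probes were called lower. NFATC2, a calcium-regulated factor of activated T cells, rose by 1.36 (limma adjusted p = 0.0219) and lost its call with the normexp correction, or when either KO array was left out. NFATC1 (-0.88), FOXP3 (0.32) and KLF2 (0.80) were not called, although NFATC1 was called lower with median scaling. The 2 measured factors of the B lineage, POU2F2 (0.27) and MEF2C (0.54), were not called either.

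Of 17 further myeloid factors 7 were tested, and 4 were called higher and none lower, the median being 1.43 on the log2 scale. PPARG, which acts in macrophages and fat cells alike, rose by 2.21, CEBPB by 1.88, MITF by 1.68 and NR1H3 by 1.04. FOS (-1.06), STAT3 (0.82) and KLF4 (1.43) were not called. With KO replicate 2 left out only 2 of the 7 were called, since PPARG and NR1H3 lost their calls. PPARG also lost its call without WT replicate 2, and CEBPB with the normexp correction (0.68). NR1H3 lost its call with median scaling or without any 1 of KO replicate 1, KO replicate 2 and WT replicate 1. FOS was called lower with median scaling, in the authors' log2 table and without WT replicate 1, and KLF4 was called higher with the normexp correction, with the slide as a block and without WT replicate 1. The fat cell markers, PPARG among them, were highest on KO replicate 2, with a summed signal of 122. The sum was 42.1, 18.2 and 10.2 on KO replicate 1, WT replicate 1 and WT replicate 2. The part of fat cells in the PPARG value was not tested.

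Genes that general knowledge places under the 6 factors were counted next, from lists compiled for this purpose. Of 14 measured genes with known SPI1 binding in myeloid cells, 8 were called higher, none lower and 6 were not called, with a median of 1.76. LYZ (lysozyme, 2.77) and FCGR1A (a high-affinity Fc receptor, 2.71, or 1.52 with the normexp correction) had the largest rises, and FCER1G (1.65) and TYROBP (1.87), adaptors of activating receptors, the smallest of those called. Leaving out KO replicate 2 left 4 of the 14 called higher, and FCER1G and TYROBP lost their calls without either KO array. The list shared 3 genes with the macrophage markers, all 10 of which were higher. Of all named genes tested, 25.2% were called higher. Whether the count of the list reflects SPI1 or the amount of myeloid cells was not tested.

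Of 13 measured genes with known GATA3 or ETS1 binding in T cells, 11 were called lower, 1 higher and 1 was not called, with a median of -2.48. RAG1 and RAG2, which cut the T cell receptor loci, had the largest falls, with log2 fold changes of -7.68 (RAG1) and -7.76 (RAG2, as measured). RAG2 was well above background on only 1 of the 2 KO arrays, so its size is uncertain, and it fell by 4.17 with the normexp correction. Of the genes called lower, CD2 (-1.47) and IL7R (-1.56), the interleukin 7 receptor chain, fell the least, and IL5 (-0.48) was the gene not called. IL4, a cytokine that GATA3 drives in helper T cells, was called higher (2.27), against the fall in GATA3, and lost that call with the normexp correction. The list shared 10 of its 13 genes with the thymocyte markers, so its count is not separate evidence about the factors.

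The rise of XBP1 was not accompanied by called changes in its endoplasmic reticulum branch. In limma 0 of 11 measured genes on the list for that branch were called, with a median of 0.09. Of these, 5 had an adjusted p under 0.05, and also an unadjusted one, at changes under 2-fold. The list also holds DDIT3 and ATF4, factors of a parallel stress branch, so its median is not that of the XBP1 branch alone. The nearest was HSP90B1, a chaperone of the endoplasmic reticulum, with a log2 fold change of 0.96 (limma adjusted p = 0.0164), under 2-fold, and 1 of its 8 probes was called higher. Of those 5, HSP90B1 and the calcium-binding chaperones CALR (0.77) and CANX (0.55) lay above 0. Only DDIT3 (-0.77) and ATF4 (-0.63), of the parallel branch, lay below it. HSP90B1 was called with quantile normalization, in the authors' log2 table and without WT replicate 1. With median scaling DDIT3 was called lower and the median of the list was -0.17. Nothing in the files used here tells whether an XBP1 probe separates the spliced from the unspliced mRNA.

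The plasma cell side of XBP1 could be set against few B cell markers. The 2 used here were lower in KO, namely CD79A (-3.47), a signalling chain of the B cell receptor, and MS4A1, a B cell membrane protein that was well above background on only 1 of the 2 KO arrays (-3.45 as measured). The median of both was -3.46, and -1.998 with the normexp correction, and CD79A was the only one left with probes well above background on all 4 arrays or in the authors' log2 table. The summed signal of both was 0.104 and 0.0883 on the KO arrays, where XBP1 was higher, against 1.13 and 1.00 on the WT arrays. No plasma cell marker of the list had a named probe.

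ID2 was set beside markers of NK and cytotoxic cells for the same reason. Of 5 tested markers 4 were called higher and 1 was not, but GZMA and FASLG entered the test through the KO arrays. With probes well above background on all 4 arrays 2 of 3 were called higher, with a median of 1.14. The summed signals of the 5 were 10.8 and 11.1 on the KO arrays against 5.36 and 7.14 on the WT arrays. KLRK1, an activating receptor, rose by 2.52 and NKG7, a granule protein, by 1.14. GZMA, a granule protease, was higher in KO (4.46 as measured) but well above background on only 1 of the 2 WT arrays. FASLG, a death ligand, was not well above background in WT and at least 9.06-fold higher in KO. GZMB (-0.76) was not called. NCR1, the natural cytotoxicity receptor of NK cells, was not well above background in KO. In WT it was, but not on both arrays, so it was not among the 5 tested. The difference of ID2 was 0.92 at its brightest probe and 0.37 to 0.43 at the other 4.

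Other cell markers moved on the same arrays. Of 9 proliferation genes all were lower (median -2.48). Called higher were 4 of 5 fibroblast, 4 of 5 endothelial, 5 of 7 fat cell, 1 of 3 dendritic cell and 1 of 3 thymic epithelial markers, with none of these lists holding a called fall. These counts rest on few arrays. PLIN1, 1 of the 5 fat cell markers called, entered the test through the KO arrays. With probes well above background on all 4 arrays, 4 of 6 fat cell markers were called higher. Without KO replicate 1 or without KO replicate 2, 1 fibroblast and 2 endothelial markers were called. The fat cell count was 1 without KO replicate 2 and 2 without WT replicate 2, and the dendritic cell count was 0 without KO replicate 2, without WT replicate 2 or with median scaling, and 2 with the normexp correction or the slide as a block. With the replicate block 2 fibroblast markers were called, as with no filter on dim probes. In the epithelial list KRT8 was higher (2.37), while EPCAM (0.37) and CCL25 (0.48), a thymus chemokine, were not called. In limma 0 of the 4 neutrophil markers were called (median -3.09), with 1 at an unadjusted p under 0.05, but 3 were called lower with the slide as a block, 1 with the normexp correction and all 4 without WT replicate 2. Without WT replicate 1, which stood apart in them, 0 were called and the median was -1.24. No red cell marker had a named probe. Which of these cells carried each factor was not tested.

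The genes most like each factor were found by the root mean square difference between the centred log2 values over the 4 arrays, a description in which 4 points share 2 genotypes. The 3 nearest to GATA3 were CXCR4, a chemokine receptor (0.069), LEF1 (0.102) and YPEL1 (0.121). For ETS1 they were BLM (0.022), SPAG5 (0.0239) and AURKA (0.0328), which are a DNA helicase and a pair of mitotic proteins. Those of SPI1 were IRF1, an interferon regulatory factor (0.0182), RBM47 (0.0275) and DNASE2 (0.0446). XBP1 was closest to PCBD1 (0.0258), PRR5 (0.0281) and STX11 (0.0426). ID2 was closest to MTURN (0.0222), MSMO1 (0.0369) and HAS3 (0.0459), and ID3 to RIT1 (0.0169), GALNS (0.0179) and PSORS1C2 (0.0192). GATA3 had the largest such distance to its nearest gene.

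Scaling each array to its median moved the median log2 fold change of all tested probes from -0.06 to -0.32, a shift of -0.26, and the share of higher calls among all calls from 61.7% to 47.9%. The factors moved by the same amount, GATA3 to -3.98, ETS1 to -2.09, ID2 to 0.66, ID3 to -0.68, SPI1 to 1.44 and XBP1 to 1.24. The direction of every factor and every call held under this scaling, although ID3 then had a limma adjusted p of 0.0446 while staying under 2-fold. ID2 was called with quantile normalization (1.11) and in the authors' log2 table (1.11), and its adjusted p rose to 0.102 and 0.113 without KO replicate 1 or KO replicate 2.

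**Figure D4:**
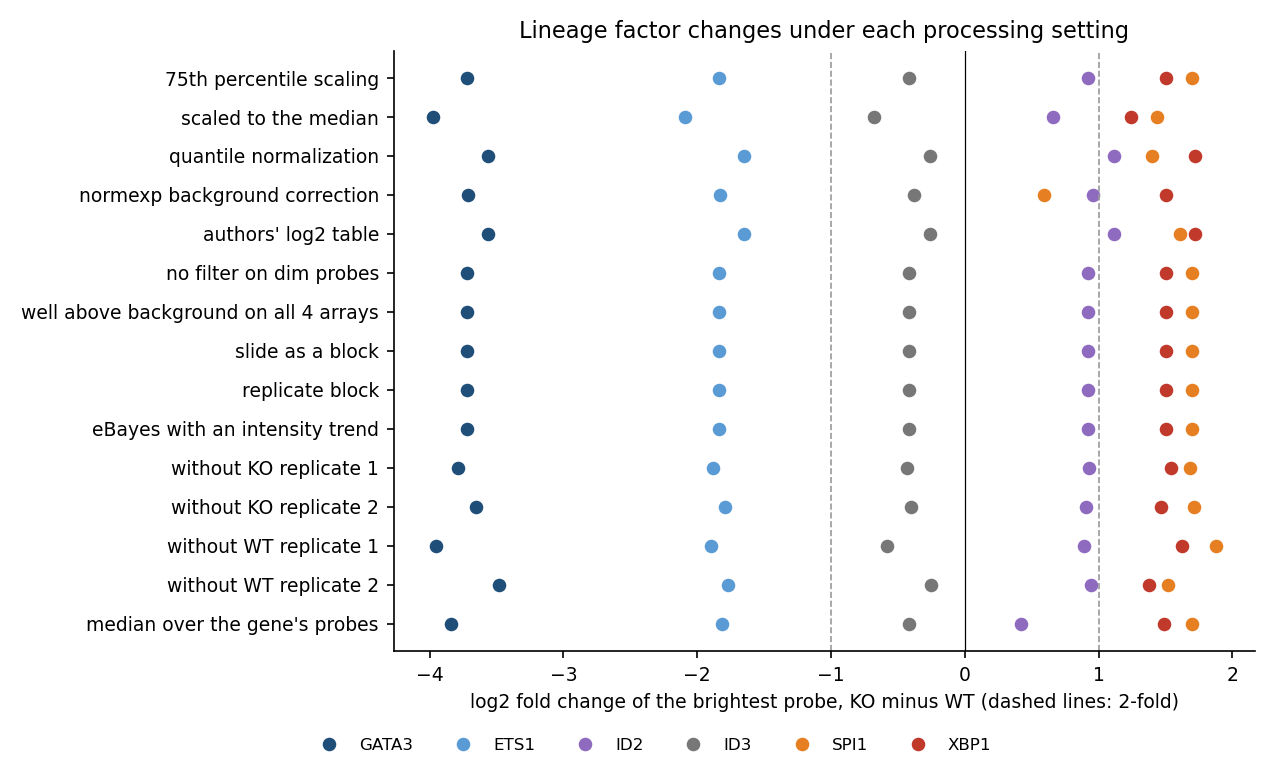
Log2 fold change of KO over WT (horizontal axis) for the brightest probe of the 6 factors under each of the processing settings listed on the vertical axis, with 1 colour per gene and 2-fold as dashed lines. GATA3, ETS1 and ID3 lie below 0 and ID2, SPI1 and XBP1 above it in every setting plotted, and the largest departure is SPI1 with the normexp correction, at 0.59 in place of 1.70.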

How the data were processed

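Thymus RNA of 2 KO and 2 WT samples was measured on 4 one-colour arrays. Spot intensity values were deposited by the authors as output of Agilent Feature Extraction 11.0.1.1, background-subtracted and not normalized between arrays. A table of log2 values of 27974 probes, deposited by the authors for the same arrays and correlating with the scanner values at a Pearson's r of 0.9998 or more, served as an alternative. Genome build and annotation were not given in the sources used here. The methods name Cy-3 and Cy-5 dyes, but the labels and files hold 1 channel. All columns used were mapped to a sample.

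After control and outlier spots were removed, processed signals were log2 transformed and reduced by the 75th percentile of their array. The 31959 of 43597 probes that both arrays of a genotype showed well above background were tested with limma 3.58.1 in R 4.3.3 (lmFit, eBayes), with Benjamini-Hochberg adjustment over all of them. The procedure was tested on simulated data. Figures were drawn with matplotlib 3.10.9 in Python 3.11.15. A gene was represented by its probe of highest mean signal. Probes were named by RefSeq accession from a table of the Sscrofa11.1 assembly, used for names alone. Where a genotype was below background the fold is a bound, computed against the higher of the probe's own signal and the dimmest signal well above background.

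The named genes are the 6 factors with every probe, called genes of each list (all for transcription factors, otherwise the 2 highest and the 2 lowest), the 3 genes most like each factor, and IL2RG. Genes of the lists that were not called were named after their values were seen. The result of 1 marker is not reported here, and its list was counted without it. The members and lists were chosen with earlier results of these data known. The alternatives were median scaling, quantile normalization, normexp with an offset of 50, run on median intensities because the files give those, the authors' table, other filters, slide or replicate number as a block, an intensity trend, each array left out and the methods' t-test. The 2 arrays per genotype limit the precision, and no two-sided exact permutation p can be below 0.33.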

Additional observations from a re-analysis of the deposited data

How the results depend on the processing

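The 6 factors kept their direction under all alternatives tried. Called probes numbered 10882 of all tested, 6617 with the normexp correction and 6090 to 12713 with each array left out in turn, the lowest 2 without KO replicate 2 (6090) and KO replicate 1 (6423). With the methods' t-test and the Bonferroni correction 0 probes were called (smallest adjusted p = 0.200), so 0 of 7 higher and 0 of 4 lower probes of the factors. With Benjamini-Hochberg adjustment of that test, 1489 probes were called, among them 2 higher and 1 lower of the factors, and unadjusted, 8610 with 7 higher and 4 lower. ID2 was called with quantile normalization (1.11) and in the authors' table (1.11), and SPI1 was not with normexp (0.59). GATA3 minus the thymocyte markers, 0.24, became -0.35 with normexp, -0.0168 in the authors' table and -0.0766 with probes above background on all arrays.

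Deviations from the genotype mean correlated at r = -0.29 between same-numbered arrays and at 0.29 between arrays of a slide. With 2 arrays per genotype these values mirror each other by construction. They cannot tell whether the numbers pair the samples, because a slide effect would give the same signs. With the replicate block 10658 probes were called and with the slide block, which is the crossed pairing, 11136, and no call among the 17 probes changed. Taken over all probes of each gene, the median of the genes with SPI1 binding was 1.88 in place of 1.76, and that of the genes with GATA3 or ETS1 binding -2.31 in place of -2.48.

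The arrays cannot resolve the direction of ID3 or the size of ID2, and SPI1 rests on 1 dim probe.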
